A study of Homo sapiens with 12 samples.

Results

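The 48 genes described here encode the machinery of mitosis and of the G2/M transition, and were taken from a list of gene symbols. All 48 were found by symbol among the 60663 genes of the count table, and all 48 passed the filter on low counts that left 20714 genes for testing. RNA was measured in RCC4, a human clear cell renal carcinoma line that has lost VHL, a tumour suppressor whose product tags hypoxia-inducible factors for destruction. VHL-negative cells are this line without VHL put back, and VHL-positive cells are the same line with VHL put back. Whether VHL-negative cells carry a control vector is not stated here. Either kind of cell received the solvent DMSO or 5 µM JQ1, which blocks the bromodomains of BET proteins and which the labels call a MYC inhibitor. Each of the 4 groups had 3 libraries (n = 3 throughout), made from total RNA after removal of ribosomal RNA. Both lines were grown with geneticin, so the treated and the control groups share it. The VHL construct and the treatment time are not in the labels. They also do not say that replicates came from separate cultures, and p-values therefore measure only the spread between these libraries, which may be technical.

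Cells enter mitosis when cyclin B and CDK1, freed by CDC25 phosphatases, drive chromosome condensation and spindle assembly. Kinetochores then attach chromosomes to microtubules under the watch of the spindle checkpoint, and the anaphase-promoting complex with CDC20 ends the phase by marking cyclins and securin for destruction. RNAs of these proteins accumulate in late cell cycle under FOXM1, B-Myb and the MuvB complex, so their level in a culture depends on how many cells are cycling as well as on transcription per cell. In bulk RNA, fewer cells in mitosis and less RNA per cell cannot be told apart.

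VHL RNA was measured as a check of the labels. In CPM, counts scaled to library sizes after TMM correction, VHL averaged 70.3 ± 7.62 (SD, n = 3) in VHL-positive DMSO, 212 ± 14 in VHL-positive JQ1, 26.4 ± 1.64 in VHL-negative DMSO and 32.7 ± 2.39 in VHL-negative JQ1 libraries. No library went against its VHL label. VHL RNA was itself 3.02-fold higher with JQ1 in VHL-positive cells (edgeR quasi-likelihood test, log2 1.59, adjusted p = 3.5e-07). It did not pass in VHL-negative cells (log2 0.31, adjusted p = 0.0674). The VHL-positive groups thus differed in VHL level between treatments, and the part of this in the results was not tested. RNA of MYC, which the labels name as inhibited, did not pass with JQ1 in VHL-positive cells (log2 -0.08, adjusted p = 0.795). MYC fell in VHL-negative cells (log2 -1.10, adjusted p = 0.000869), and its part in the results was not tested. The renal list of 15 markers summed to 2868 to 3991 CPM per library, with the kidney transcription factor PAX8 at 193 to 722 CPM. VIM, which is not particular to kidney, had the highest median of the list (1171 CPM, range 612 to 1785 CPM). LHX1 was at 0.194 to 2.99 CPM and CA9 at 0 to 97.8 CPM. The proximal tubule receptors LRP2 (up to 0.365 CPM) and CUBN (up to 1.85 CPM) were at or near 0. Summed markers of endothelium (2.80 to 10.3 CPM over 7 genes), leukocytes (1.16 to 4.90 CPM over 7 genes) and fibroblasts or pericytes (7.48 to 35.0 CPM over 8 genes) were low, and CD3E, PTPRC, CDH5 and PECAM1 were at 0 in at least 1 library and never above 0.329 CPM. Total counts ran from 15452949 to 32502310 per library.

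A control library stood apart in the mitotic genes. Replicate 2 of the VHL-positive DMSO libraries was the highest of its group for 46 of the 48 genes, and its summed mitotic level was 7370 CPM against 4969 and 5205 CPM in replicates 1 and 3. Its mitochondrial share of counts was 21.8%, against 18.6% and 17.9%, and its share of structural RNA was 0.382%, against 2.78% and 0.817%. The part of these differences in the results was not tested. Calls of the 48 genes that were lost without this library are given below with their value without it.

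In VHL-positive cells JQ1 was followed by lower RNA of many mitotic genes. Of the 48 genes 19 fell, 0 rose and 29 did not pass (edgeR quasi-likelihood test, Benjamini-Hochberg adjusted p under 0.05 over all 20714 genes), where 31.8% of all genes tested passed, 16.5% falling and 15.3% rising. The median log2 change was -0.44 over the 48 genes and -0.03 over all genes tested, and 45 of the 48 values lay below 0. For 23 genes the 3 JQ1 libraries all lay below the 3 DMSO libraries, and for 0 genes above, against 24% and 24.2% of all genes. As a share of all counts, the 48 genes together took 0.513%, 0.699% and 0.532% of the DMSO libraries and 0.442%, 0.359% and 0.413% of the JQ1 libraries, so the groups did not overlap. The plot of all 48 genes by library shows these values.

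**Figure D1:**
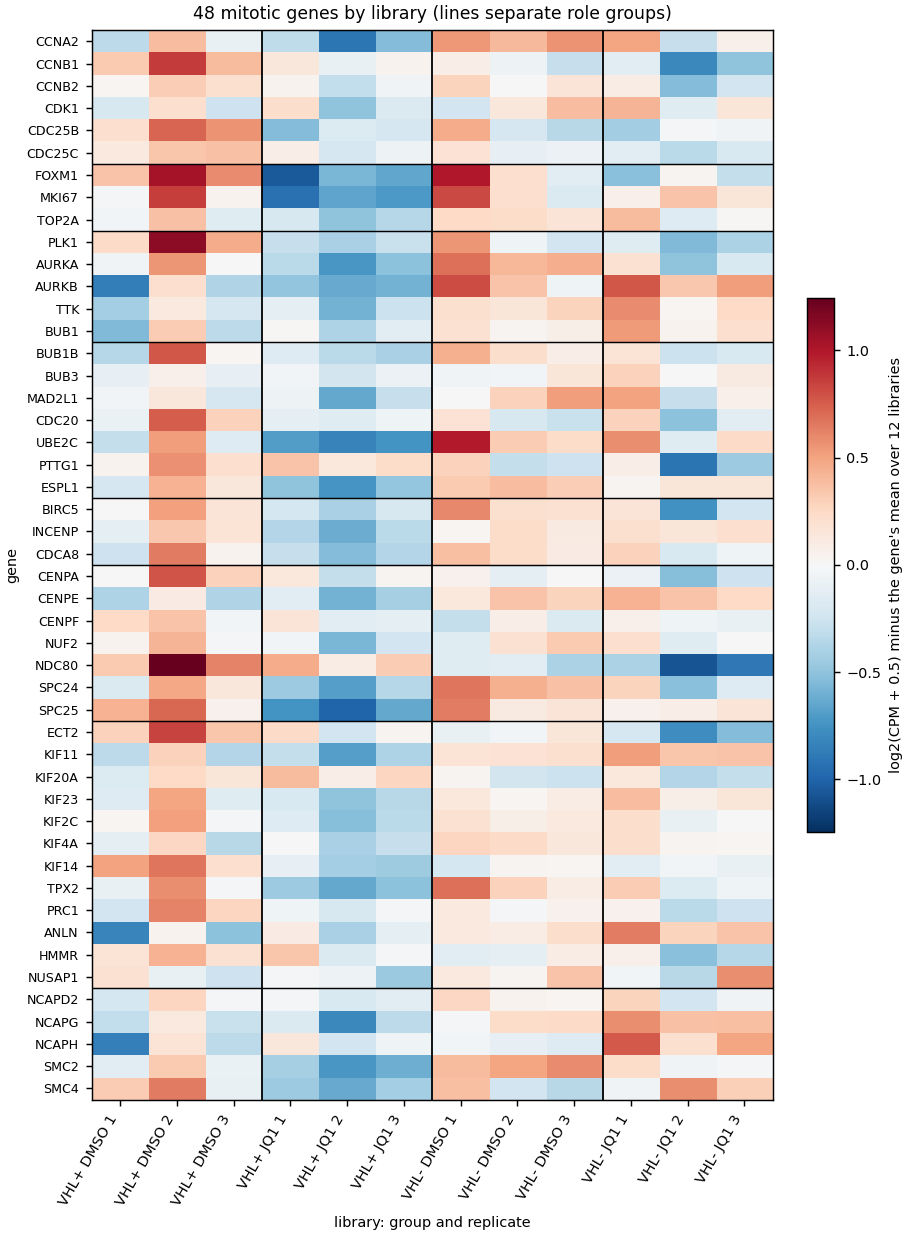
Level of each of the 48 mitotic genes (rows, lines separate the role groups) in each of the 12 libraries (columns, named by group and replicate), as log2(CPM + 0.5) minus the gene's mean over the 12 libraries. Replicate 2 of the VHL-positive DMSO libraries is the highest of its group in 46 of 48 rows, and replicate 2 of the VHL-positive JQ1 libraries the lowest of its group in 42 of 48.

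Leaving out libraries changed this count. Without replicate 2 of the VHL-positive DMSO libraries 10 genes fell and 2 rose, where 25.8% of all genes passed, the median was -0.20, and 36 of 48 values lay below 0. The 10 that fell were all among the 19, and the calls of the other 9 (CCNA2, CCNB1, AURKA, UBE2C, CDCA8, SPC24, KIF2C, TPX2 and ECT2) were lost. The 2 that rose were ANLN (log2 0.56, adjusted p = 0.028) and NCAPH (log2 0.55, adjusted p = 0.0422). Replicate 2 of the VHL-positive JQ1 libraries was the lowest of its group for 42 genes. Without it 10 genes fell and 0 rose, where 23.7% of all genes passed, and the same 9 calls were lost. Of the 19 calls, 9 held under all 19 alternatives tried: FOXM1, MKI67, SPC25, PLK1, SMC4, SMC2, CDC25B, KIF14 and ESPL1. Scaling by total counts alone gave 29 lower and 0 higher, where 29.3% of all genes passed, with the median of all genes tested at -0.14.

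JQ1 in VHL-negative cells gave fewer calls, and the difference between the lines has its own test below. Falls were called for 6 genes (FOXM1, AURKA, SPC24, BIRC5, ECT2 and SMC2), a rise for 1 (NCAPH), and 41 did not pass, where 32.1% of all genes tested passed, 17.5% falling and 14.6% rising. The median log2 change was -0.15 over the 48 genes and 0.03 over all genes, and 33 of 48 values lay below 0. All 3 JQ1 libraries lay below all 3 DMSO libraries for 8 genes and above them for 4, against 22.3% and 20.7% of all genes. The share of all counts was 0.579%, 0.643% and 0.612% under DMSO and 0.601%, 0.550% and 0.564% under JQ1, and these ranges overlap. None of the 7 calls held under all 19 alternatives. Without replicate 1 of the VHL-negative DMSO libraries 2 genes passed (SMC2 lower and SMC4, not among the 7, higher), where 23.9% of all genes did. Leaving out replicate 2 of the VHL-negative JQ1 libraries gave 2 (FOXM1 and NCAPH), where 24.1% of all genes passed. Leaving out their replicate 3 gave 0, where 21.6% passed. Their replicate 1 was the highest of its group for 39 of the 48 genes. Without it 10 genes fell and 0 rose, where 37.3% of all genes passed, and the median was -0.23. Of the 6 genes that fell with all libraries, 5 had also fallen in VHL-positive cells. BIRC5 there had a log2 change of -0.51 (adjusted p = 0.0605).

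**Figure D2:**
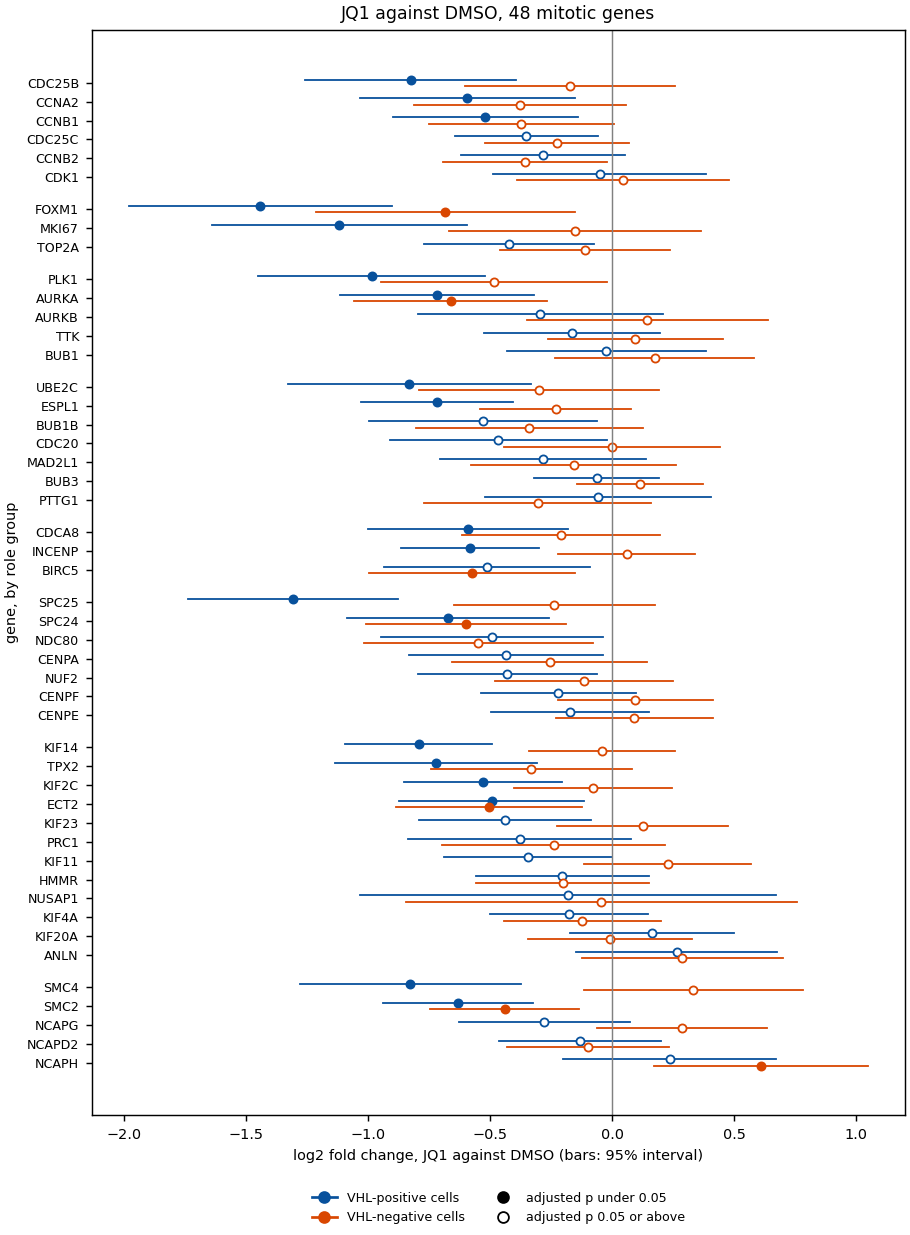
Log2 fold change of JQ1 against DMSO (x axis) for each of the 48 genes (y axis, by role group) in VHL-positive and VHL-negative cells, with 95% intervals and filled points for an adjusted p under 0.05. The 19 filled points of VHL-positive cells all lie below 0, while VHL-negative cells have 6 below 0 and 1 above.

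Promoters of many of these genes carry a CCAAT box, bound by NF-Y, and a cell cycle homology region (CHR), the element read by MuvB complexes. In RefSeq (GRCh38.p14) a promoter of 300 bases, from 250 before to 50 after the start, was matched by symbol for 41 of the 48 genes; FOXM1, AURKA, TTK, BUB3, UBE2C, BIRC5 and TPX2 had no match. A CHR, searched as TTTGAA or TTCGAA on both strands, was found in 30 of the 41 (73.2%), in 11.5% of the promoters of tested genes and in 16.4% of all 35116 promoters. A CCAAT on either strand was found in 30 of the 41 (73.2%), in 36.4% of the promoters of tested genes and in 34.6% of all. Both were present in 23 of the 41 (56.1%), against 4.86% and 6.38%. The windows of 150 bases before the start are printed for 5 genes, chosen to show both motifs beside different responses to JQ1, 5′ to 3′ along the gene, with matches to either motif in capitals. MKI67 (chr10:128126424-128126573, minus strand) and ESPL1 (chr12:53268149-53268298, plus strand) fell with JQ1 in VHL-positive cells. KIF11 (chr10:92592980-92593129, plus strand) holds both motifs and was not called there. NCAPH (chr2:96335616-96335765, plus strand) holds a CCAAT only and rose in VHL-negative cells. CDC25C (chr5:138338356-138338505, minus strand) has no match to the searched strings in its 300 bases, which does not show that the gene lacks such elements.
MKI67: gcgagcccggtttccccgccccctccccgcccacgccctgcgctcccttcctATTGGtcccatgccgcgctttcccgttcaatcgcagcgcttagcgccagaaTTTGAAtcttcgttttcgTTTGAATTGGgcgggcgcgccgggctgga
ESPL1: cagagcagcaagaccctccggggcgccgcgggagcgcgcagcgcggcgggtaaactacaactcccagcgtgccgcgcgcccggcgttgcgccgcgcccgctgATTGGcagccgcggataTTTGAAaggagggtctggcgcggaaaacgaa
KIF11: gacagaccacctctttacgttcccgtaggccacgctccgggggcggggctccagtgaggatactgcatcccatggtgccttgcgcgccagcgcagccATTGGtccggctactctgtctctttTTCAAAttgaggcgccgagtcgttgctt
NCAPH: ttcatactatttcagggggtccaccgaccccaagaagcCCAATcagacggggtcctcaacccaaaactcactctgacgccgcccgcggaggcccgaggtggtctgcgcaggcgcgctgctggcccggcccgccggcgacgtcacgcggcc
CDC25C: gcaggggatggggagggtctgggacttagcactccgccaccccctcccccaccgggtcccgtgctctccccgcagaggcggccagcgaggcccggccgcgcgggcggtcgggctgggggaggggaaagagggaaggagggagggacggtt
In MKI67 the CHR elements begin at -47 and -29 from the start, and the CCAAT matches, on the minus strand of the gene, at -98 and -24, the last overlapping the second CHR by 1 base. ESPL1 has its CHR at -31 and its CCAAT at -48, and KIF11 at -28 and -53.

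Responses to JQ1 were set beside the motifs. A match to the searched CHR strings was present in 66.7% of the 15 matched promoters of genes that fell with JQ1 in VHL-positive cells. In the 26 promoters of genes that were not called this share was 76.9%. For CCAAT these shares were 73.3% and 73.1%. The median log2 change in VHL-positive cells was -0.43 for the 30 genes with a CHR match and -0.35 for the 11 without one. These 11 may hold CHR elements of other sequence, or near another start, which the search could not find. The comparison therefore cannot decide whether a CHR goes with the response. A motif match is a string of letters in the window and does not show binding.

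**Figure D3:**
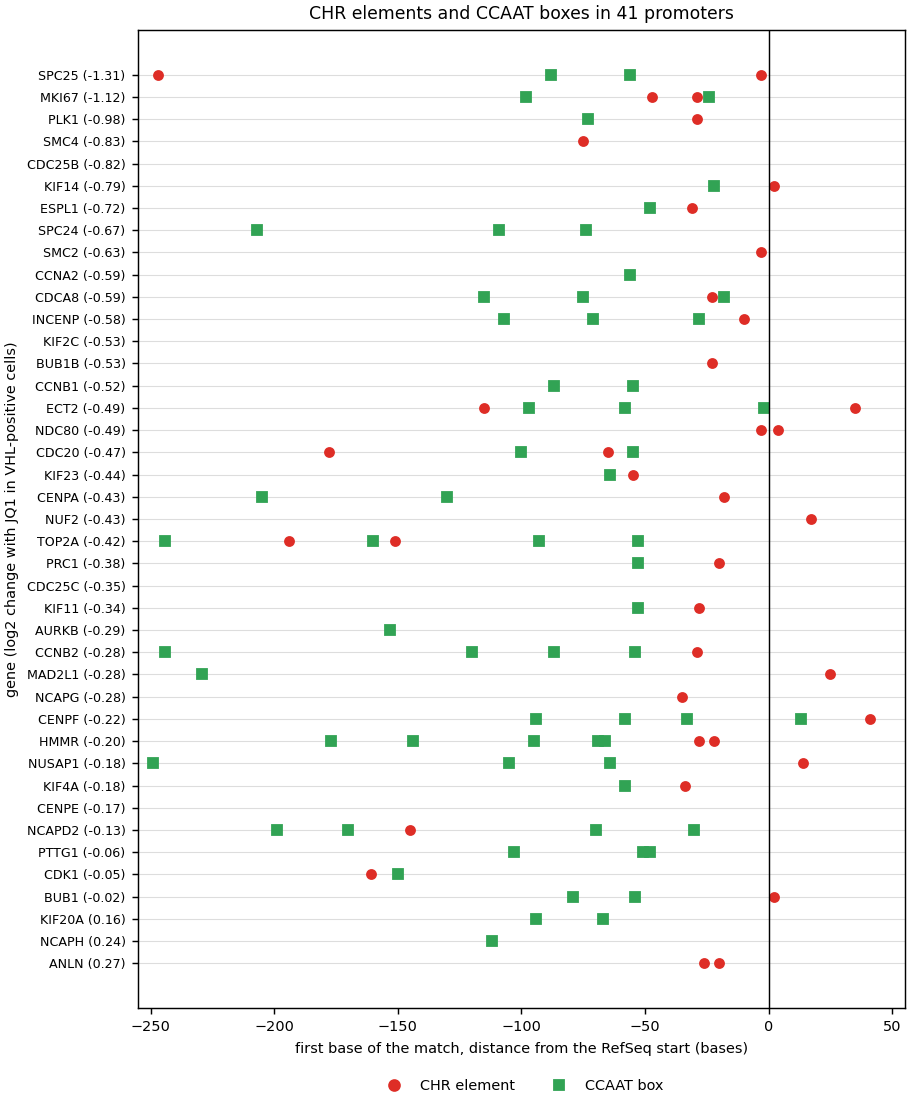
Positions of CHR elements and CCAAT boxes (x axis, first base of the match in bases from the RefSeq start) in the 41 matched promoters, with genes (y axis) ordered by their log2 change with JQ1 in VHL-positive cells. Most CHR matches lie close to the start, and in 27 genes at least 1 begins at -100 or later; both motifs occur from the top to the bottom of the order.

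Among the drivers of mitotic entry, cyclins, CDK1 and its CDC25 activators, 3 of 6 fell in VHL-positive cells and 0 of 6 changed in VHL-negative cells. CCNB1, the cyclin B that activates CDK1, had the highest level per length of the group (55.5 CPM per kb of exon). It measured 171, 250 and 178 CPM in VHL-positive DMSO libraries and 150, 127 and 140 CPM under JQ1. All JQ1 libraries lay below all DMSO libraries, and CCNB1 fell 1.43-fold (log2 -0.52, SE 0.18, adjusted p = 0.036). Without DMSO replicate 2, at 250 CPM, the CCNB1 change was -0.31 and did not pass (adjusted p = 0.224). CCNB1 in VHL-negative cells gave 144, 131 and 112 CPM under DMSO and 124, 77.9 and 95.9 CPM under JQ1, groups that overlap (log2 -0.37, adjusted p = 0.126). CDC25B, the phosphatase that starts CDK1 activation, measured 41.8, 60.2 and 53.4 CPM under DMSO and 24.6, 32.0 and 31.1 CPM under JQ1 in VHL-positive cells. That was a fall of 0.82 on the log2 scale (SE 0.20, adjusted p = 0.00586) without overlap. Its VHL-negative libraries, at 50.1, 31.2 and 28.4 CPM under DMSO and 26.7, 35.9 and 34.9 CPM under JQ1, overlapped (log2 -0.17, adjusted p = 0.551).

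CCNA2, cyclin A of S and G2 phase, fell in VHL-positive cells by 0.59 on the log2 scale (adjusted p = 0.0387), although 44.6 CPM in JQ1 replicate 1 lay above 44.3 CPM in DMSO replicate 1. The CCNA2 change without DMSO replicate 2 was -0.35 and did not pass (adjusted p = 0.235). CDK1, the kinase itself, measured 57.2, 75.7 and 54.6 CPM in VHL-positive DMSO and 76.7, 46.3 and 58.0 CPM in VHL-positive JQ1 libraries. The highest and the lowest of these 6 values were both JQ1 libraries, and the log2 change was -0.05 (95% interval -0.49 to 0.39, adjusted p = 0.883). In VHL-negative cells CDK1 gave 55.4, 72.3 and 85.9 CPM under DMSO and 88.4, 59.0 and 72.7 CPM under JQ1 (log2 0.04, interval -0.39 to 0.48). CCNB2 and CDC25C had log2 changes of -0.28 and -0.35 in VHL-positive cells and did not pass in either line.

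FOXM1, the forkhead factor that activates G2/M genes, and MKI67, whose protein Ki-67 coats mitotic chromosomes and marks cycling cells, fell in VHL-positive cells together, the first and the third in size of change among the 48. FOXM1 measured 120, 193 and 141 CPM in VHL-positive DMSO libraries and 45, 62.7 and 59.5 CPM under JQ1. The groups did not overlap, and the fall was 2.71-fold (log2 -1.44, SE 0.25, adjusted p = 0.000497). FOXM1 in VHL-negative cells gave 187, 108 and 84.9 CPM under DMSO and 65.2, 96.0 and 75.9 CPM under JQ1. That fall passed (log2 -0.68, SE 0.25, adjusted p = 0.0476), but JQ1 replicate 2 lay above DMSO replicate 3, and without DMSO replicate 1 the change was -0.29 (adjusted p = 0.342). This DMSO replicate 1 also had the highest mitochondrial share of the 12 libraries, 25.3%, whose part in the result was not tested.

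MKI67 measured 466, 860 and 488 CPM in VHL-positive DMSO libraries and 248, 301 and 288 CPM under JQ1, a fall of 2.17-fold without overlap (log2 -1.12, SE 0.25, adjusted p = 0.00276). Without DMSO replicate 2, at 860 CPM, the change was -0.76 (adjusted p = 0.0178). In VHL-negative cells MKI67 gave 840, 549 and 418 CPM under DMSO and 494, 607 and 525 CPM under JQ1, so all JQ1 values lay within the control range (log2 -0.15, adjusted p = 0.668). TOP2A, the topoisomerase that untangles sister chromatids, had the highest level of the group per length (51.5 CPM per kb). It measured 318, 419 and 293 CPM under DMSO and 284, 229 and 254 CPM under JQ1 in VHL-positive cells, groups that did not overlap but missed the threshold (log2 -0.42, adjusted p = 0.0618). Its VHL-negative libraries, 388, 381 and 363 CPM under DMSO and 428, 292 and 330 CPM under JQ1, overlapped (log2 -0.11, adjusted p = 0.645).

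**Figure D4:**
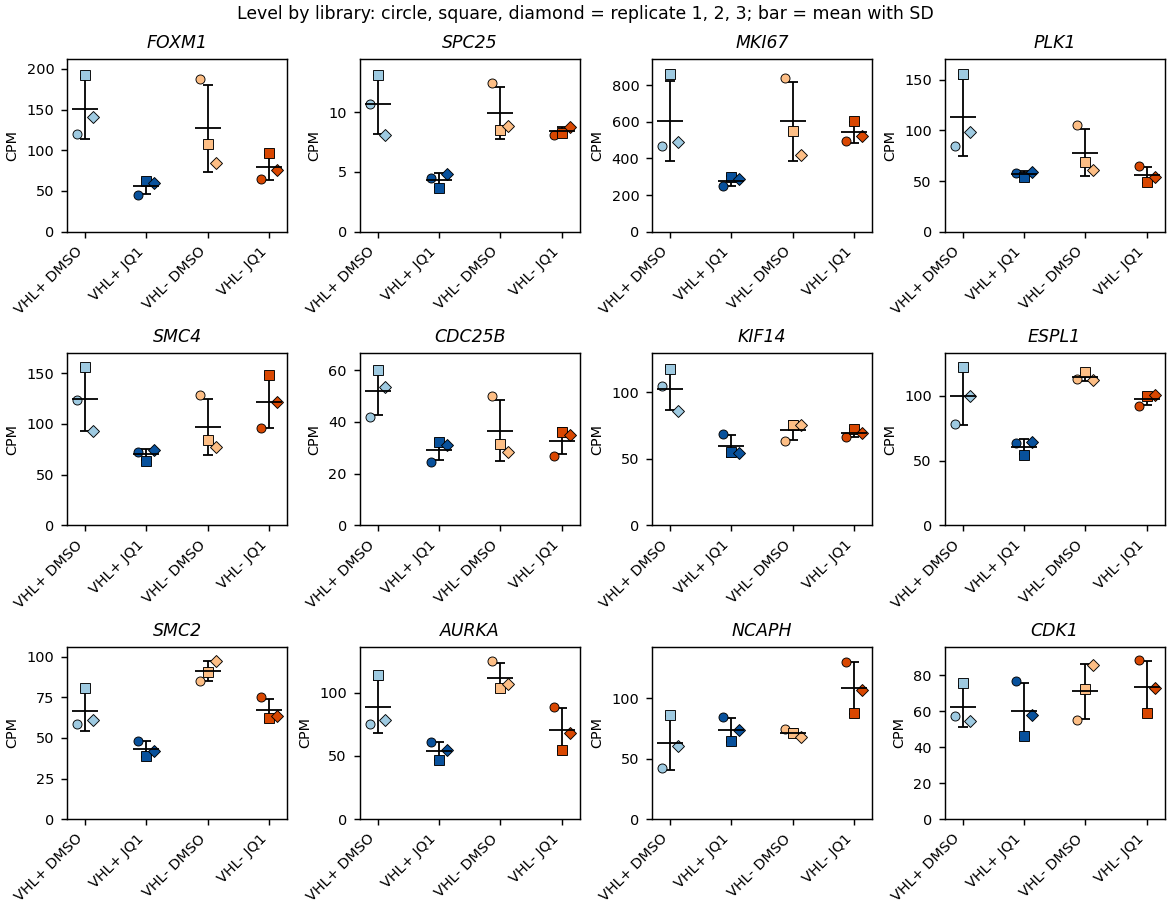
Level in CPM (y axis, from 0) of 12 mitotic genes in the 4 groups (x axis), with circle, square and diamond for replicates 1, 2 and 3 and a bar for the mean with its SD. FOXM1, SPC25, MKI67, PLK1, SMC4, CDC25B, KIF14, ESPL1, SMC2 and AURKA have all VHL-positive JQ1 libraries below all VHL-positive DMSO libraries, whereas NCAPH is highest in VHL-negative JQ1 libraries and CDK1 overlaps in all groups.

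Of the 5 mitotic kinases, PLK1 and AURKA fell in VHL-positive cells and AURKA alone in VHL-negative cells. PLK1, the polo-like kinase of mitotic entry and centrosome maturation, measured 84.3, 156 and 98.7 CPM in VHL-positive DMSO libraries and 58.4, 53.8 and 58.9 CPM under JQ1. The groups did not overlap, the JQ1 values lay close together, and the fall was 1.98-fold (log2 -0.98, SE 0.22, adjusted p = 0.00295). PLK1 in VHL-negative cells gave 105, 68.8 and 60.6 CPM under DMSO and 64.4, 48.6 and 54.4 CPM under JQ1, overlapping at the top of the treated range (log2 -0.48, adjusted p = 0.103). AURKA, the centrosome and spindle pole kinase, measured 75.7, 114 and 78.1 CPM under DMSO and 61.4, 46.9 and 54.4 CPM under JQ1 in VHL-positive cells. In VHL-negative cells AURKA gave 125, 104 and 107 CPM under DMSO and 88.9, 54.9 and 68.3 CPM under JQ1. Neither line's groups overlapped, and the falls were 0.72 (adjusted p = 0.00813) and 0.66 (adjusted p = 0.0129) on the log2 scale. Without DMSO replicate 2 the AURKA change in VHL-positive cells was -0.49 and did not pass (adjusted p = 0.0618).

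AURKA and AURKB were the highest of the kinases per length (27.8 and 27.9 CPM per kb), and their order is not resolved at this difference. AURKB, TTK and BUB1, the kinases of the chromosomal passenger complex and of the spindle checkpoint, did not pass in either line. Their log2 changes with JQ1 ran from -0.29 to -0.02 in VHL-positive cells and from 0.10 to 0.18 in VHL-negative cells. BUB1 was nearest to 0 of all 48 genes in VHL-positive cells (log2 -0.02, interval -0.43 to 0.38).

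Within the spindle checkpoint and anaphase group, UBE2C and ESPL1 fell in VHL-positive cells, 5 of 7 did not pass there, and 0 of 7 passed in VHL-negative cells. UBE2C, the ubiquitin-conjugating enzyme of the anaphase-promoting complex, measured 61.6, 109 and 67.6 CPM under DMSO and 46.5, 42.3 and 45 CPM under JQ1, groups that did not overlap. The log2 change was -0.83 (SE 0.23, adjusted p = 0.0131), and -0.52 without DMSO replicate 2 (adjusted p = 0.101). In VHL-negative cells UBE2C gave 151, 94.6 and 89.1 CPM under DMSO and 114, 68.2 and 89.7 CPM under JQ1, which overlap (log2 -0.30, adjusted p = 0.346). ESPL1, the separase that cuts cohesin at anaphase, went from 100 ± 22.2 to 60.8 ± 5.75 CPM in VHL-positive cells (log2 -0.72, SE 0.15, adjusted p = 0.00153), without overlap. CDC20, the coactivator that the checkpoint holds back, was the highest of the group per length (66.5 CPM per kb). Its log2 change was -0.47 (adjusted p = 0.103) in VHL-positive cells and 0.00 (interval -0.44 to 0.44) in VHL-negative cells, the value nearest to 0 there. The checkpoint proteins BUB1B, BUB3 and MAD2L1 and the securin PTTG1 did not pass in either line, with log2 changes of -0.53 to 0.12.

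Of the 3 partners of AURKB in the chromosomal passenger complex, which corrects faulty attachments at the centromere, 2 fell in VHL-positive cells and 1 in VHL-negative cells, while the test of the difference between the lines passed for 0 of them. CDCA8 (borealin), the highest of them per length at 33 CPM per kb, fell by 0.59 (adjusted p = 0.028) and INCENP, the scaffold, fell by 0.58 (adjusted p = 0.00337) on the log2 scale in VHL-positive cells. For CDCA8 the change without DMSO replicate 2 was -0.28 and did not pass (adjusted p = 0.232), and INCENP passed at -0.46 (adjusted p = 0.0209). In VHL-negative cells CDCA8 had a log2 change of -0.21 and INCENP one of 0.06, and neither passed. BIRC5 (survivin) measured 106, 152 and 119 CPM in VHL-positive DMSO libraries and 91.3, 80.5 and 92.8 CPM under JQ1. Its VHL-negative libraries gave 161, 122 and 121 CPM under DMSO and 119, 62.7 and 90.2 CPM under JQ1. The groups did not overlap in either line, and in VHL-negative cells BIRC5 fell (log2 -0.57, SE 0.20, adjusted p = 0.0378), against a log2 change of -0.51 in VHL-positive cells that did not pass.

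At the kinetochore, the SPC24 and SPC25 subunits of the NDC80 complex fell in VHL-positive cells and their partners NDC80 and NUF2 did not pass. SPC25 was a low gene, at 10.7, 13.1 and 8.10 CPM in VHL-positive DMSO libraries and 4.44, 3.65 and 4.82 CPM under JQ1. The groups did not overlap, and the fall of 2.47-fold had the smallest adjusted p of the 48 (log2 -1.31, SE 0.20, adjusted p = 0.000171). SPC25 in VHL-negative cells gave 12.4, 8.49 and 8.80 CPM under DMSO and 8.10, 8.28 and 8.78 CPM under JQ1, which overlap (log2 -0.24, adjusted p = 0.375). SPC24 measured 51.1, 81.0 and 64.1 CPM under DMSO and 42.2, 35.9 and 45.2 CPM under JQ1 in VHL-positive cells, and 92.1, 79.0 and 74.6 CPM against 70.3, 40.2 and 51.7 CPM in VHL-negative cells. SPC24 fell in both lines, by 0.67 (adjusted p = 0.0152) and by 0.60 (adjusted p = 0.0271) on the log2 scale, with no overlap in either. The SPC24 change in VHL-positive cells without DMSO replicate 2 was -0.47 and did not pass (adjusted p = 0.097).

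NDC80, the microtubule-binding subunit, had log2 changes of -0.49 (adjusted p = 0.0943) and -0.55 (adjusted p = 0.0693) with JQ1 in VHL-positive and VHL-negative cells, and NUF2 had -0.43 and -0.11. CENPF, a large outer kinetochore protein, was the highest of the group per length (44.8 CPM per kb) and had log2 changes of -0.22 and 0.09. The kinetochore motor CENPE and the centromeric histone CENPA did not pass in either line, with changes of -0.43 to 0.09.

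Among the 12 kinesins, spindle and cytokinesis proteins, KIF14, TPX2, KIF2C and ECT2 fell in VHL-positive cells, and ECT2 alone passed in VHL-negative cells. KIF14, a kinesin of the cytokinetic midbody, measured 105, 118 and 85.6 CPM in VHL-positive DMSO libraries and 68.8, 54.9 and 54.1 CPM under JQ1. Every JQ1 library lay below every DMSO library (1.73-fold, log2 -0.79, SE 0.14, adjusted p = 0.000554). The VHL-negative values of KIF14 were 63.1, 75.5 and 75.1 CPM under DMSO and 66.6, 72.0 and 69.2 CPM under JQ1, so the treated range lay inside the control range (log2 -0.04, interval -0.34 to 0.26). TPX2, which brings AURKA to the spindle, had the highest level per length of all 48 genes (82.7 CPM per kb) and fell by 0.72 on the log2 scale (adjusted p = 0.0101). KIF2C, a microtubule-depolymerizing kinesin, fell by 0.53 (adjusted p = 0.0146). Neither call held without DMSO replicate 2, where TPX2 had a change of -0.46 (adjusted p = 0.0773) and KIF2C one of -0.32 (adjusted p = 0.113).

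ECT2, the exchange factor that activates RhoA at the cleavage furrow, passed close to the threshold in both lines. ECT2 measured 203, 299 and 211 CPM under DMSO and 196, 141 and 170 CPM under JQ1 in VHL-positive cells (log2 -0.49, adjusted p = 0.0458). In VHL-negative cells ECT2 gave 156, 162 and 184 CPM under DMSO and 143, 96.7 and 114 CPM under JQ1 (log2 -0.50, adjusted p = 0.0413). The groups overlapped in neither line. Without DMSO replicate 2 the ECT2 change in VHL-positive cells was -0.27 and did not pass (adjusted p = 0.278), and in each line the call was lost in 9 of 19 alternatives. ANLN (anillin), the scaffold of the contractile ring, had the highest JQ1 value of the 48 in VHL-positive cells, log2 0.27 (adjusted p = 0.324), and 0.29 in VHL-negative cells (adjusted p = 0.275). KIF11, KIF20A, KIF23, KIF4A, PRC1, HMMR and NUSAP1 did not pass in either line, with log2 changes of -0.44 to 0.23. NUSAP1 and PRC1 were the lowest genes per length (0.267 and 0.908 CPM per kb), and 62.2% and 58.4% of their exon bases are shared with neighbouring annotated genes, so their counts are uncertain.

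The 5 condensin genes, whose ring compacts mitotic chromosomes, included 2 that fell in VHL-positive cells (SMC2 and SMC4), 1 that fell in VHL-negative cells (SMC2) and 1 that rose there (NCAPH). SMC2, an ATPase core subunit, measured 58.6, 80.9 and 60.9 CPM in VHL-positive DMSO libraries and 48.4, 38.8 and 42.1 CPM under JQ1. In VHL-negative cells SMC2 gave 85.2, 90.7 and 97.5 CPM under DMSO and 75.4, 62.4 and 63.5 CPM under JQ1. SMC2 fell in both lines without overlap, by 0.63 (adjusted p = 0.00359) and by 0.44 (adjusted p = 0.0284) on the log2 scale. SMC4, its partner ATPase, measured 124, 156 and 92.8 CPM under DMSO and 72.4, 63.9 and 73.9 CPM under JQ1 in VHL-positive cells, without overlap (log2 -0.83, SE 0.21, adjusted p = 0.00754). Its VHL-negative values were 129, 84.2 and 77.7 CPM under DMSO and 95.9, 149 and 122 CPM under JQ1, which overlap (log2 0.33, adjusted p = 0.244). Of the SMC4 exon length 25.6% overlaps IFT80 and TRIM59.

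NCAPH, the subunit that closes the condensin I ring, measured 74.2, 70.9 and 67.9 CPM in VHL-negative DMSO libraries and 130, 87.7 and 107 CPM under JQ1. All treated libraries lay above all controls, and NCAPH rose 1.53-fold (log2 0.61, SE 0.21, adjusted p = 0.0334), the only rise called among the 48 with JQ1. In VHL-positive cells NCAPH gave 41.9, 86.0 and 60.4 CPM under DMSO and 84.0, 64.3 and 73.3 CPM under JQ1, which overlap (log2 0.24, adjusted p = 0.418). NCAPD2, the highest of the group per length (42.1 CPM per kb), and NCAPG, with 33.1% of its exon length overlapping LCORL, did not pass in either line.

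Whether the lines respond differently was tested directly, as the JQ1 effect in VHL-negative cells minus that in VHL-positive cells. No gene of the 48 passed with edgeR, where 1.21% of all genes did (0.497% above 0 and 0.71% below), while 11 had an unadjusted p under 0.05 (22.5% of all genes did) and DESeq2 called 4 (7.29% of the genes to which it gave an adjusted p). The difference lay above 0, a weaker fall or a rise in VHL-negative cells, for 42 of the 48, with a median of 0.24 against 0.01 over all genes. The 4 smallest adjusted p belonged to the 4 genes that DESeq2 called: SMC4 (log2 1.16, SE 0.30, adjusted p = 0.0676), SPC25 (log2 1.07, SE 0.28, adjusted p = 0.0703), KIF14 (log2 0.75, SE 0.20, adjusted p = 0.0723) and INCENP (log2 0.64, SE 0.19, adjusted p = 0.086). At the other end, ECT2 (log2 -0.01, interval -0.55 to 0.52), AURKA (log2 0.06, interval -0.50 to 0.61), SPC24 (log2 0.07, interval -0.51 to 0.65) and BIRC5 (log2 -0.06, interval -0.65 to 0.54) had values near 0. Without replicate 2 of the VHL-positive DMSO libraries the median difference was 0.07, with 29 of 48 above 0 and 0 called, where 1.58% of all genes passed. Without replicate 1 of the VHL-negative JQ1 libraries the median was 0.10, with 31 of 48 above 0. In that fit 4 were called, all above 0, where 16.2% of all genes passed.

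Under DMSO the lines differed in few of these genes. Compared with VHL-positive cells, 4 of the 48 were higher in VHL-negative cells, 4 were lower and 40 did not pass, where 30.7% of all genes passed, 14.8% higher and 15.9% lower. The median log2 difference was 0.04. With total counts alone the split was 6 higher and 3 lower, where 29.3% of all genes passed. Groups did not overlap for 5 genes with VHL-negative cells higher and for 5 with VHL-negative cells lower, against 21.5% and 21.2% of all genes. The higher genes were AURKB (77.4 ± 23.3 against 47.8 ± 17.9 CPM, log2 0.70, adjusted p = 0.0338), ANLN (481 ± 21.9 against 332 ± 104 CPM, log2 0.53, adjusted p = 0.0479), CENPE (88.4 ± 6.86 against 64.4 ± 13.2 CPM, log2 0.46, adjusted p = 0.0307) and SMC2 (91.1 ± 6.14 against 66.8 ± 12.3 CPM, log2 0.45, adjusted p = 0.0262). AURKB overlapped between the lines and the other three did not.

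NDC80 showed the largest difference between the lines under DMSO, at 19.8, 20.1 and 16.6 CPM in VHL-negative and 27.7, 53.1 and 34.2 CPM in VHL-positive libraries. It was 2.03-fold lower in VHL-negative cells, without overlap (log2 -1.02, SE 0.22, adjusted p = 0.00184), and its call alone of the 8 held under all 19 alternatives. CCNB1 (log2 -0.64, adjusted p = 0.0126), KIF14 (log2 -0.53, adjusted p = 0.00931) and ECT2 (log2 -0.51, adjusted p = 0.0416) were lower as well, each without overlap. The split between higher and lower followed the library left out. Leaving out replicate 2 of the VHL-positive DMSO libraries gave 11 higher and 2 lower, where 29.4% of all genes passed, with a median of 0.26, AURKB at 1.03 and NDC80 at -0.71, and the calls of CCNB1 (log2 -0.43, adjusted p = 0.0789) and ECT2 (log2 -0.30, adjusted p = 0.226) were lost. Leaving out replicate 1 of the VHL-positive DMSO libraries gave 0 higher and 8 lower, where 25.1% of all genes passed, with a median of -0.09. Without replicate 1 of the VHL-negative DMSO libraries 2 were higher and 7 lower, where 25.9% of all genes passed, with a median of -0.01. Without replicate 1 of both, 0 were higher and 9 lower, where 24.6% of all genes passed, with a median of -0.13. Of these 9, 2 were among the 8 calls above. Fewer genes passed without replicate 3 of the VHL-positive (4) or replicates 2 (3) or 3 (4) of the VHL-negative DMSO libraries. Of all genes 23.1%, 24.1% and 24.7% passed in these fits, in that order.

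Under JQ1 the lines differed more often. Of the 48 genes 18 were higher in VHL-negative than in VHL-positive cells, 5 were lower and 25 did not pass, where 40.9% of all genes passed, 19.7% higher and 21.2% lower. The median log2 difference was 0.39, against 0.03 over all genes, and 36 of 48 values lay above 0. All VHL-negative libraries lay above all VHL-positive libraries for 24 genes and below them for 3, against 25.7% and 27.2% of all genes. With total counts alone 27 were higher and 2 lower, where 40.1% of all genes passed, with the median of all genes at 0.19. Without replicate 2 or replicate 3 of the VHL-positive JQ1 libraries 14 genes passed in each case, 11 and 13 of them higher. Of all genes 32.3% and 31.1% passed in these fits. Without replicate 1 of the VHL-negative JQ1 libraries 12 were higher and 6 lower, where 44.4% of all genes passed, with a median of 0.25. The comparison shares its JQ1 libraries with both JQ1 comparisons, so its values restate part of them: 9 of the 18 (CCNA2, MKI67, UBE2C, ESPL1, INCENP, SPC25, TPX2, SMC2 and SMC4) are genes that fell with JQ1 in VHL-positive cells.

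AURKB was the furthest apart, at 99.7, 73.3 and 83.5 CPM in VHL-negative and 41.0, 37.5 and 38.4 CPM in VHL-positive JQ1 libraries. The lines did not overlap (2.20-fold, log2 1.14, SE 0.24, adjusted p = 0.00136). UBE2C (log2 1.02, adjusted p = 0.00271), SPC25 (log2 0.97, adjusted p = 0.00147), MKI67 (log2 0.96, adjusted p = 0.00562), NCAPG (log2 0.86, adjusted p = 0.00069), the spindle motor KIF11 (log2 0.86, adjusted p = 0.000605), SMC4 (log2 0.80, adjusted p = 0.00715), CENPE (log2 0.72, adjusted p = 0.00144) and CCNA2 (log2 0.70, adjusted p = 0.0134) followed. The remaining higher genes were ESPL1 (0.68), SMC2 (0.64), INCENP (0.63), TTK (0.62), TPX2 (0.58), ANLN (0.56), the centralspindlin kinesin KIF23 (0.55), NCAPH (0.55) and TOP2A (0.45), in log2 difference. KIF11 measured 132, 116 and 117 CPM in VHL-negative and 74.3, 56.9 and 70.1 CPM in VHL-positive JQ1 libraries, although JQ1 against DMSO did not pass for it in either line (log2 0.23 and -0.34).

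Lower in VHL-negative cells under JQ1 were NDC80 (12.8 ± 3.38 against 27.2 ± 3.54 CPM, log2 -1.08, adjusted p = 0.00117), PTTG1 (log2 -0.61, adjusted p = 0.0367), ECT2 (log2 -0.52, adjusted p = 0.0302), CCNB1 (log2 -0.49, adjusted p = 0.0401) and the mitotic kinesin KIF20A (log2 -0.41, adjusted p = 0.0496). ECT2 and KIF20A overlapped between the lines. Under both treatments AURKB, CENPE, ANLN and SMC2 were higher and NDC80, CCNB1 and ECT2 lower in VHL-negative cells. Of the 23 calls under JQ1, 11 held under all 19 alternatives: AURKB, CENPE, ESPL1, INCENP, KIF11, MKI67, NCAPG, NDC80, SMC2, SPC25 and UBE2C. Over the 4 comparisons of 2 groups, 32 of the 48 genes were called, and the 16 called in none were CCNB2, CDK1, CDC25C, BUB1, BUB1B, BUB3, MAD2L1, CDC20, CENPA, CENPF, NUF2, KIF4A, PRC1, HMMR, NUSAP1 and NCAPD2.

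**Figure D5:**
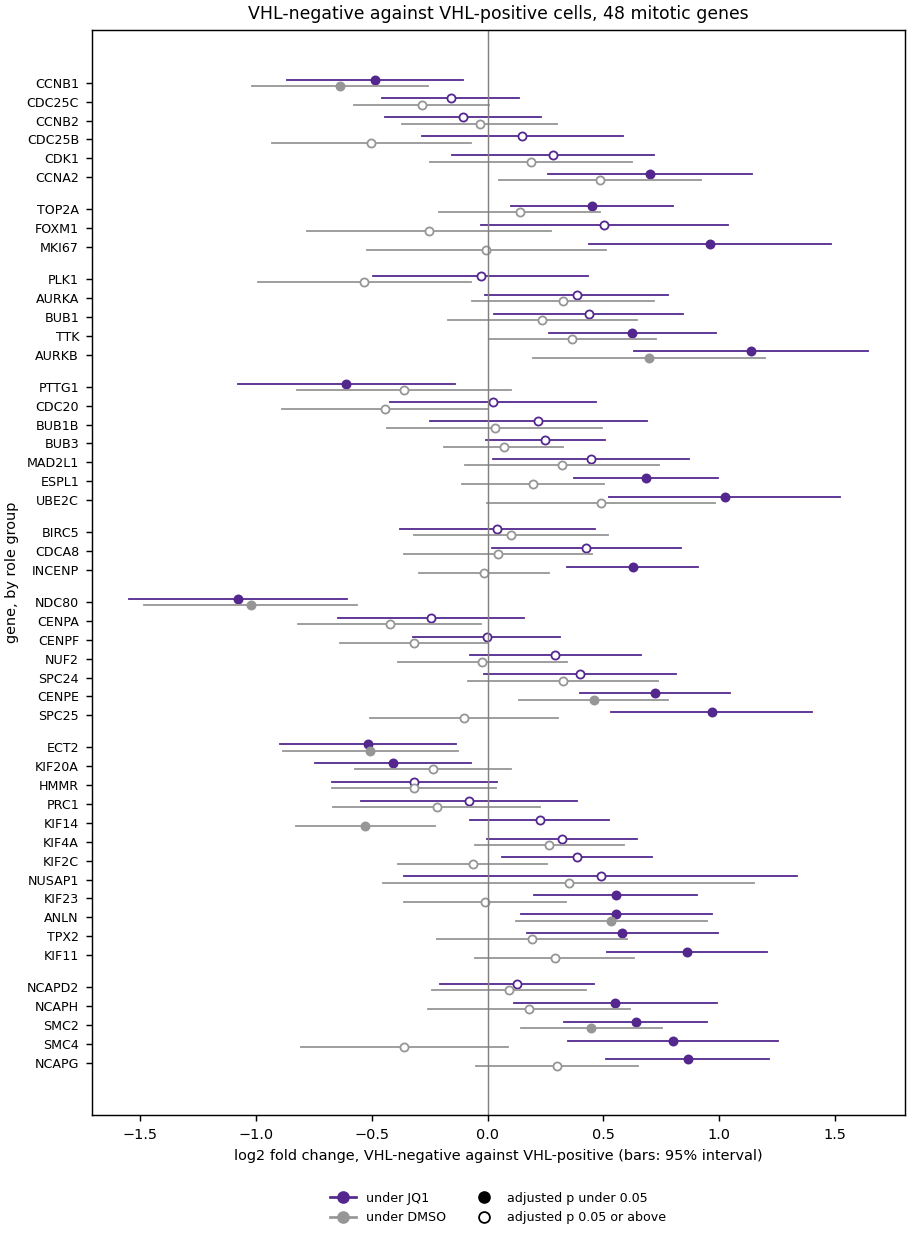
Log2 difference between VHL-negative and VHL-positive cells (x axis) for each of the 48 genes (y axis, by role group) under DMSO and under JQ1, with 95% intervals and filled points for an adjusted p under 0.05. Under JQ1 18 filled points lie above 0 and 5 below, and under DMSO 4 and 4.

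Genes of mitosis outside the 48 were counted in the same fit. Of 60 further mitotic genes 22 fell and 0 rose with JQ1 in VHL-positive cells (36.7%, against 31.8% of all genes; median log2 -0.35), led by the centromere protector SGO1 (log2 -1.26, adjusted p = 0.000565), CDC25A (log2 -1.17, adjusted p = 0.000477) and the CDK1-inhibiting kinase PKMYT1 (log2 -1.06, adjusted p = 0.000291). Without replicate 2 of the VHL-positive DMSO libraries 12 fell and 2 rose (23.3%, against 25.8% of all genes; median -0.15), with SGO1 at -0.91, CDC25A at -0.84 and PKMYT1 at -0.79. In VHL-negative cells 8 fell and 2 rose (16.7%, against 32.1%; median -0.06), led by DEPDC1 (log2 -0.96), the checkpoint ATPase TRIP13 (log2 -0.96) and SGO1 (log2 -0.68). VHL-negative cells had 10 of the 60 higher and 2 lower under DMSO (20%, against 30.7%). These were led by CCNB3 (log2 2.46, a gene of low counts), the kinesin KIF15 (log2 0.92) and the centrosome kinase NEK2 (log2 -0.78). Without that library 22 were higher and 1 lower (38.3%, against 29.4%), with CCNB3 at 2.09, KIF15 at 1.14 and NEK2 at -0.69. Under JQ1 27 were higher and 3 lower (50%, against 40.9%). The genes called under JQ1 were led by CCNB3 (log2 2.57), the spindle protein TACC3 (log2 1.40) and the centromere protein CENPU (log2 1.3). TACC3 was the only one of the 60 to pass for the difference between JQ1 effects (log2 1.26, adjusted p = 0.0387), and it did not without that library (log2 1.21, adjusted p = 0.0512).

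Among complexes around the 48, the shares that passed with JQ1 lay below or near those of all genes (31.8% and 32.1%). They were 23.5% in VHL-positive and 11.8% in VHL-negative cells for the anaphase-promoting complex, 25% and 16.7% for cohesin, and 33.3% in either line for the MuvB and DREAM genes. Of 17 subunits and coactivators of the anaphase-promoting complex, 2 rose and 2 fell with JQ1 in VHL-positive cells (median log2 0.04), with CDC26 at -1.36 (a low gene), ANAPC16 at 0.92 and ANAPC11 at 0.77. In VHL-negative cells CDC23 fell by 0.83 on the log2 scale and ANAPC16 rose (log2 0.61). Of 12 cohesin genes 1 rose and 2 fell in VHL-positive cells (PDS5B -0.84, STAG1 -0.65, NIPBL 0.40, in log2), and SMC1A rose (log2 0.48) and STAG1 fell (log2 -0.38) in VHL-negative cells. SMC1A, a cohesin ATPase, was also higher in VHL-negative cells under DMSO (log2 0.93) and JQ1 (log2 1.44). Of the 12 cohesin genes 3 were higher and 2 lower in VHL-negative cells under DMSO (41.7%, against 30.7% of all genes). Under JQ1 6 were higher and 1 lower (58.3%, against 40.9% of all genes). Of 15 genes of MuvB, B-Myb and the DREAM complex, the regulators of G2/M transcription, 1 rose and 4 fell in VHL-positive cells and 0 rose and 5 fell in VHL-negative cells. In VHL-positive cells the values of this list ran from -0.91 to 0.90 on the log2 scale. LIN9, a MuvB core subunit, fell in both lines (log2 -0.91, adjusted p = 0.00611, and log2 -0.75, adjusted p = 0.0203), MYBL2, which encodes B-Myb, fell in VHL-positive cells (log2 -0.74, adjusted p = 0.0361), and LIN52 (log2 -0.78) and E2F4 (log2 -0.57) fell in VHL-negative cells. Without replicate 2 of the VHL-positive DMSO libraries the JQ1 calls in VHL-positive cells were lost for CDC23 (log2 -0.36, adjusted p = 0.14), CDC26 (log2 -1.26, adjusted p = 0.064), NIPBL (log2 0.33, adjusted p = 0.0891), MYBL2 (log2 -0.35, adjusted p = 0.284) and RBL1 (log2 -0.20, adjusted p = 0.375). In that fit LIN9 fell (log2 -0.55, adjusted p = 0.0433), and LIN37, also of the MuvB and DREAM list, rose (log2 0.78, adjusted p = 0.0443). RBL1, a DREAM pocket protein, was higher in VHL-negative cells under DMSO (log2 0.85) and under JQ1 (log2 1.22). Of the 15 MuvB and DREAM genes 5 were higher and 3 lower in VHL-negative cells under DMSO (53.3%, against 30.7% of all genes). Under JQ1 4 were higher and 5 lower (60%, against 40.9% of all genes), with a median log2 difference of -0.32.

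For VHL-positive cells the authors' deposited table of the JQ1 effect had 18 of the 48 genes lower and 0 higher at an adjusted p under 0.05, where 25.7% of genes with an adjusted p passed. For VHL-negative cells the authors' deposited table had 6 lower and 1 higher, where 26.9% passed.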

How the data were processed

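The deposited table holds raw counts per Ensembl gene for 12 libraries. Tools listed by the submitters' processing notes, in no stated order, are DESeq2 1.30.1, featureCounts, STAR 2.7.8 and Subread 2.0.3, and the build is GRCh38; whether counting used strand is not stated in those notes. The authors' deposited comparisons, 1 per line, give a log2 fold change and a p-value with its adjusted p-value, as DESeq2 writes them. The members and gene lists were chosen with earlier results of these data known.

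The analysis used edgeR 4.0.16 in R 4.3.3: TMM scaling, filterByExpr by group (20714 genes, 99.87% of counts), 1 mean per group over all 12 libraries, quasi-likelihood F tests and Benjamini-Hochberg adjustment over all tested genes. Levels are CPM; levels per kb used the exon length of GENCODE release 29, which also gave overlaps between genes on either strand. No 2 libraries were identical. The fitting code was tested on simulated data. Genes named with values were those called in any comparison, the highest per length of each role group, and the smallest and largest JQ1 changes; promoters to print were chosen after their values were seen. Alternatives were other scalings and filters, DESeq2 1.42.0, limma-voom (limma 3.58.1), only the groups compared, a replicate block, protein-coding genes, stricter thresholds and leaving out libraries.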

Additional observations from a re-analysis of the deposited data

How the results depend on the processing

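Over 240 gene results and their alternatives, 4405 of 4795 values kept their side of the threshold, 237 lost and 153 gained it. Of the 4405, 4182 also kept their direction and 223, over 67 results that were not called in either fit, changed sign; 0 called values changed sign. Counts of called mitotic genes are given in the order JQ1 in VHL-positive cells (19 as reported), JQ1 in VHL-negative cells (7), VHL-negative against VHL-positive cells under DMSO (8), the same under JQ1 (23) and the difference between JQ1 effects (0). Leaving out each library in turn gave 10 to 27, 0 to 10, 3 to 13, 14 to 23 and 0 to 4. Of all genes 21.7 to 27.4%, 21.6 to 37.3%, 23.1 to 29.4%, 29.6 to 44.4% and 0.199 to 16.2% passed in these fits. The 10 of the second and the 4 of the last comparison came without replicate 1 of the VHL-negative JQ1 libraries, where 37.3% and 16.2% passed. At an adjusted p under 0.01 the counts were 11, 0, 2, 13 and 0, where 19.3%, 19.5%, 20%, 26.5% and 0.227% of all genes passed. With at least 1.5-fold asked beside an adjusted p under 0.05, 4 passed for JQ1 in VHL-negative cells, where 24.9% of all genes did. For the lines under DMSO and under JQ1 3 and 15 passed, where 23.6% and 32.7% of all genes did. With replicate 3 of both JQ1 groups left out the counts were 10, 0, 3, 11 and 0, where 19.2%, 18.3%, 24.2%, 22.3% and 0.116% of all genes passed. With replicate 1 of both DMSO groups left out the second and the last were 4 and 4, where 26.3% and 0.959% passed. Scaling by total counts alone gave 29 in the first comparison and 2 for the difference, where 29.3% and 0.961% of all genes passed. Protein-coding genes alone gave 29 and 4, where 42.5% and 2.11% of those tested passed. For the difference, no filter on low counts gave 3, where 2.77% of all genes passed. DESeq2 gave 4, where 7.29% of the genes to which it gave an adjusted p passed. Fitting only the groups compared gave 4 under DMSO, where 28.3% of all genes passed. The causes were not tested.

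With the replicate number as a block, 18, 5, 5, 21 and 0 genes passed, where 31%, 31.9%, 29.9%, 40.6% and 1.31% of all genes did. Same-numbered libraries had deviations correlated from -0.26 to 0.33 over 18 pairs of libraries, with 4 above 0.1. Those 4 were replicates 1 and 2 of the VHL-negative DMSO and JQ1 groups (0.27 and 0.33, against -0.23 and -0.38 for crossed numbers) and of both JQ1 groups (0.24 and 0.17, against -0.23 and -0.18). Replicate 3 was at 0.01 in both cases and no pair of groups was above 0.1 for all 3 numbers, so the fit without the block is reported; whether a number marks a shared culture or day is not in the labels. Depth limits the low genes most: NUSAP1, at 0.402 to 1.36 CPM, had intervals of the JQ1 effect from -1.03 to 0.67 in VHL-positive and from -0.84 to 0.76 in VHL-negative cells on the log2 scale.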
